A study of Homo sapiens with 2 samples.

Results

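The cells described here are the mock-treated HCT116 cells with the highest levels of *ASNS*, *TRIB3*, *CHAC1*, and *DDIT4*, 4 genes of the amino acid stress response, in a culture that received no drug. HCT116 is an epithelial line from a human colorectal carcinoma. Of the 1783 cells of the mock-treated library, 1298 had at least 10000 unique molecular identifiers (UMIs, each marking 1 captured transcript molecule) and at most 50% of UMIs from mitochondrially encoded genes, while 395 had fewer UMIs and another 90 had a larger mitochondrial share. The 1298 eligible cells were ranked by the summed UMIs of the 4 genes divided by all UMIs of the cell, and the top 25%, 324 cells (the ASNS-high cells or members), was compared with the bottom 25%, also 324 cells (the ASNS-low cells). The series held 3534 cells in all. The members were therefore chosen from the levels of these 4 genes, and those levels are given as a description without a test.

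The study compared HCT116 cells treated with the DNA methylation inhibitor decitabine (DAC) with mock-treated cells by single-cell RNA-seq. Both cultures were seeded on day 0 in McCoy's 5A medium with serum. DAC was added to its culture at 0.5 μM on day 1 and again on day 3, and the medium of both was replaced on day 5 before harvest on day 7. Each condition was 1 library of droplet-captured cells, with 49911689 UMIs in the mock-treated and 59046165 UMIs in the DAC-treated library. Cells of 1 library are not replicates, so no test was possible, and every interval below covers counting error only, at the 95% level. The libraries shared 12 cell barcodes, 2 of them among the members. The labelled cell type was checked by its epithelial genes, and the 10 listed genes summed to 5902 CPM (UMIs per 1000000) in the members and 5019 CPM in the ASNS-low cells. Of the 6 with at least 500 UMIs, the keratin gene *KRT18* was at 2392 and 1660 CPM and the tight junction gene *CLDN7* at 481 and 176 CPM. The tight junction gene *CLDN4* was at 65.7 and 114 CPM, and *EPCAM*, *KRT8*, and *KRT19* had ratios of 1.19, 1.14, and 0.84, so single epithelial genes differed in both directions. *PTPRC*, *CD3E*, *PECAM1*, and *HBB*, which mark blood and endothelial cells, were 4 of 7 listed genes of other cell types and were without a UMI in both groups, while the 7 genes summed to 17.3 CPM in ASNS-low and 12.7 CPM in ASNS-high cells. Since a single cell line holds no cell type that lacks the 4 genes, the level given by free RNA was not measured.

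When amino acids run short, uncharged tRNAs activate the kinase GCN2, which phosphorylates the translation initiation factor eIF2. Most translation then slows, whereas the mRNA of the transcription factor ATF4 is translated better, and ATF4 induces genes for making and importing amino acids and for loading them onto tRNAs. Other kinases act on eIF2 under endoplasmic reticulum (ER) stress, heme shortage, and viral infection, so that ATF4 targets respond to several stresses, together called the integrated stress response.

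The 4 ranking genes lie on different chromosomes. On hg38, GENCODE release 44 places *ASNS*, which encodes asparagine synthetase, at chr7:97851677-97872542 on the minus strand. *TRIB3*, a pseudokinase that limits ATF4 signaling, lies at chr20:362835-397559, *CHAC1*, a glutathione-degrading enzyme, at chr15:40952962-40956512, and *DDIT4*, an inhibitor of mTORC1, at chr10:72273919-72276036, all on the plus strand. ATF4 and C/EBP proteins bind composite elements whose core can be written TGATGNAA. This motif was searched on both strands in the 250 bases upstream of RefSeq gene starts (GRCh38.p14), where 1104 of 35116 promoters (3.14%) held it. The 4 ranking genes had 7 promoters, of which 2 held a match, 1 each of *ASNS* and *CHAC1*. Of the 57 genes in the ATF4 lists used below, 41 were matched to 66 promoters, and 10 of these promoters (15.2%) held it. A match is a description of letters and not evidence of binding. The matches are shown for both ranking genes and for the 5 ATF4-list genes that were also measured in the comparison, 5′ to 3′ on the strand of the gene, with the match in capitals (TTGCATCA is a match on the opposite strand).
ASNS, chr7:97872458-97872487, minus strand: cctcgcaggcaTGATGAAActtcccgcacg
CHAC1, chr15:40953251-40953280, plus strand: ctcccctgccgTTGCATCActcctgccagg
GOT1, chr10:99430804-99430833, minus strand: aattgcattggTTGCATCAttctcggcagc
SLC1A5, chr19:46784893-46784922, minus strand: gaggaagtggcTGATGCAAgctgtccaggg
AARS, chr16:70289675-70289704, minus strand: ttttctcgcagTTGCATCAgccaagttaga
IARS, chr9:92293698-92293721, minus strand: ttttcagcgcgTTGCATCAcctcc
HERPUD1, chr16:56931955-56931984, plus strand: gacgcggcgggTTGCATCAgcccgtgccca

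The ranking score was spread over a continuous range rather than in separate groups. Eligible mock-treated cells had a median of 6.53 UMIs of the 4 genes per 10000 UMIs, with a range from 0 to 20.3. The lowest member had 9.199 and the highest cell outside had 9.195 per 10000, so the limit cut through a dense part of the range. The ASNS-low cells ended at 3.734 and included 18 cells without a UMI of any of the 4 genes. Ordered from low to high, the cells formed 4 rank groups of 25% each, with medians of 2.14, 5.23, 7.79, and 11.1 per 10000, and 21.6% of the members were above 2 times the eligible median.

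**Figure D1:**
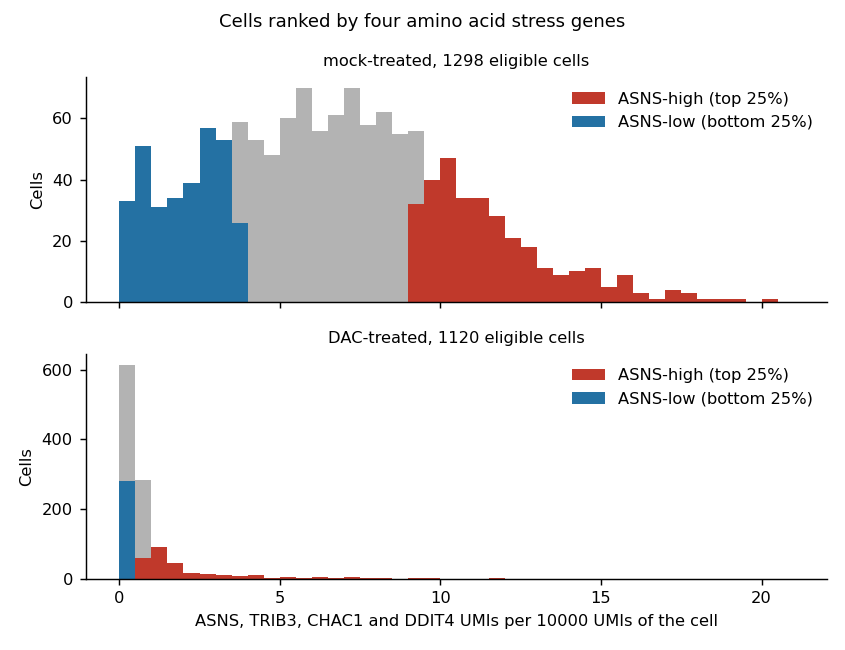
Number of cells (y axis) by UMIs of *ASNS*, *TRIB3*, *CHAC1*, and *DDIT4* per 10000 UMIs of the cell (x axis) for eligible mock-treated (1298) and DAC-treated (1120) cells, with the top 25% in red, the bottom 25% in blue, and the cells between in gray. Mock-treated scores form a single broad range up to 20.3, whereas DAC-treated scores pile up near 0 with a tail up to 11.8.

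After thinning each cell to 10000 UMIs, all 4 genes were seen in far more members than ASNS-low cells. *ASNS* was detected in 97.2% of members (median 4.5 UMIs, maximum 13) and in 53.1% of ASNS-low cells. Its level over the 4 rank groups was 89.2, 237, 336, and 462 CPM. *DDIT4* was detected in 97.8% of members and 46% of ASNS-low cells, and its level was 69.4, 150, 259, and 427 CPM. These were the genes that filled most of the score, with 41.9% of the UMIs of the 4 genes from *ASNS* and 33.9% from *DDIT4* over the eligible cells. *TRIB3* was detected in 82.7% of members and 23.5% of ASNS-low cells, at 30.9, 102, 149, and 201 CPM. *CHAC1*, the gene with the fewest UMIs, was detected in 41.4% of members and 10.2% of ASNS-low cells, at 11.1, 31.4, 47.4, and 56.5 CPM. Most members thus had no *CHAC1* UMI at this depth.

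Each of the 4 genes also differed between groups that it had no part in choosing. With cells ranked by the other 3 genes, *ASNS* was 2.70-fold higher in the top 25% than in the bottom 25% (interval 2.43 to 3.01) and *TRIB3* 3.71-fold (3.09 to 4.48). *CHAC1* was 3.54-fold (2.54 to 5.03) and *DDIT4* 3.26-fold higher (2.88 to 3.70). The 4 genes therefore varied together over these cells, although each pair was only loosely related in single cells, with Pearson correlations from 0.05 to 0.26 over 1298 cells of 1 library.

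The members also differed in the totals that the rule itself draws on, since total UMIs divide the score and both total UMIs and the mitochondrial share set which cells were eligible. They had a median of 34393 UMIs, against 28938 in the ASNS-low cells, and a median mitochondrial share of 15.2% against 19.8%. At 10000 UMIs, a median of 2865.5 genes was detected in members and 2688 in ASNS-low cells. Ribosomal protein genes made up a median of 24% of UMIs in members and 26.5% in ASNS-low cells. Over the 1298 cells, the score had a correlation of -0.41 with the mitochondrial share and 0.13 with total UMIs, as a description of cells that share a library. The part of these properties in the gene differences below was tested only as far as the rankings within bins given there go.

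Over all other genes, far more were higher than lower in the members. Of 1504 genes with at least 500 UMIs over the ASNS-high and ASNS-low cells, 586 (39%) were at least 25% higher in the members, and 162 (10.8%) were at least 20% lower, the same fold in the other direction. These limits define what is counted as higher or lower below. A gene could reach 500 UMIs through 1 of the groups alone, so counts of measured genes are descriptions. The median log2 ratio of all 1504 genes was 0.19 rather than 0. With median-of-ratios scaling, which sets this median to 0, the split was 368 higher and 326 lower, so genes within about 0.2 of 0 are given below as values without a direction.

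Genes that ATF4 is known to induce were higher in the members almost throughout. Of 57 such genes in 6 lists, which left out the 4 ranking genes, 30 were measured, 28 were higher, and none was lower, beside the 39% of all measured genes that were higher. Their median log2 ratio was 1.12, and 27 of the 30 were higher at every step from the lowest to the highest rank group. Summed over the lists, their level over the 4 rank groups was 4389, 6810, 8171, and 9611 CPM.

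**Figure D2:**
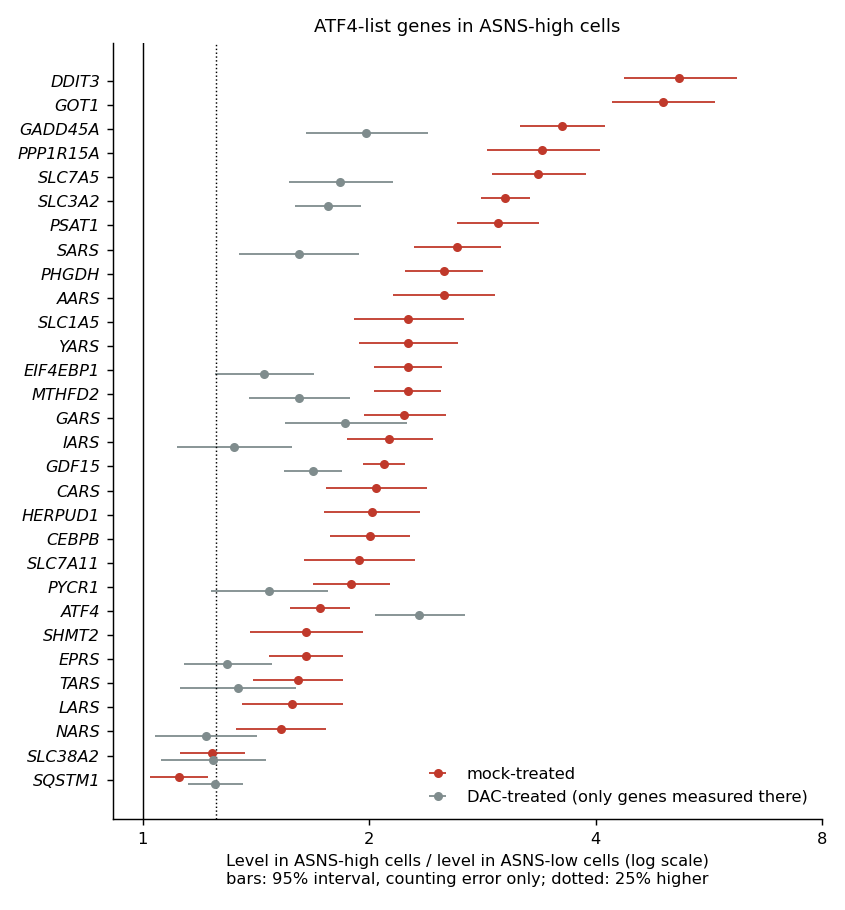
Level in the ASNS-high cells divided by the level in the ASNS-low cells (x axis, log scale) for each measured gene of the ATF4 lists, in mock-treated cells (red) and, where measured, in DAC-treated cells (gray), with 95% counting intervals and a dotted line at the limit of 25% higher. In mock-treated cells the ratios run from 1.12 for *SQSTM1* to 5.17 for *DDIT3*, and 28 of 30 are past the limit.

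Enzymes that make serine, glycine, and other amino acids were higher in the members. *PHGDH*, the first enzyme of serine synthesis, was at 122, 203, 246, and 306 CPM over the 4 rank groups, a ratio of ASNS-high to ASNS-low cells of 2.51 (2.24 to 2.83). *PSAT1*, the next enzyme of that pathway, was at 105, 211, 263, and 310 CPM, a ratio of 2.96 (2.62 to 3.36). *MTHFD2* and *SHMT2*, mitochondrial enzymes that move one-carbon units taken from serine, had ratios of 2.25 (2.03 to 2.49) and 1.65 (1.39 to 1.96). These were all 4 measured genes of that list. *GOT1*, which makes aspartate, the substrate of asparagine synthetase, had the largest ratio of the enzymes at 4.91 (4.21 to 5.76), from 60.2 CPM in the ASNS-low to 296 CPM in the ASNS-high cells. *PYCR1*, of proline synthesis, had a ratio of 1.89 (1.68 to 2.13).

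The amino acid importers followed, with 4 of 5 measured genes past the limit, beside 39% of all genes. *SLC7A5* and *SLC3A2* encode the light and heavy chains of one transporter of large neutral amino acids, and their ratios were 3.36 (2.91 to 3.88) and 3.04 (2.82 to 3.28). *SLC3A2* was at 280, 532, 677, and 851 CPM over the 4 rank groups. *SLC1A5*, a glutamine transporter, had a ratio of 2.25 (1.91 to 2.67), and *SLC7A11*, which imports cystine, 1.94 (1.64 to 2.30). *SLC7A11* was at 119 CPM in the second rank group, already close to the 127 CPM of the members. *SLC38A2*, another neutral amino acid transporter, was at 225 and 278 CPM in ASNS-low and ASNS-high cells, a ratio of 1.24 (1.12 to 1.37).

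All 10 measured aminoacyl-tRNA synthetases of the ATF4 list, the enzymes that load amino acids onto tRNAs, were past the limit, beside 39% of all genes. Their median log2 ratio was 1.06. The ratios ranged from 1.53 (1.33 to 1.75) for *NARS*, which charges asparagine tRNA, to 2.62 (2.30 to 2.99) for *SARS*, which charges serine tRNA. *AARS*, for alanine tRNA, was at 70.1 CPM in ASNS-low and 176 CPM in ASNS-high cells, a ratio of 2.51 (2.15 to 2.94). *DARS*, for aspartate tRNA, which was the only measured synthetase outside the ATF4 list, was at 115 and 124 CPM, a ratio of 1.08 (0.939 to 1.251). Synthetases outside the list are thus represented by this single gene.

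Among transcription factors, *DDIT3*, which encodes the stress factor CHOP, was at 49.4, 125, 170, and 255 CPM over the 4 rank groups, a ratio of 5.17 (4.36 to 6.16). *CEBPB*, a partner of ATF4 on composite elements, had a ratio of 2.01 (1.78 to 2.27). The *ATF4* mRNA itself, which is regulated largely at translation, was at 231, 358, 373, and 397 CPM, a ratio of 1.72 (1.57 to 1.88), with most of its difference between the first and the second rank group. *CEBPG*, *ATF5*, and *ATF3* had fewer than 500 UMIs, and their ratios were 3.10 (2.52 to 3.84), 2.71 (2.15 to 3.46), and 1.91 (1.48 to 2.49).

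Of 15 listed stress effectors, 6 were measured and 5 of these were higher, beside 39% of all genes. *GADD45A*, which slows the cell cycle and aids DNA repair, had a ratio of 3.61 (3.17 to 4.12), and *PPP1R15A*, which directs the phosphatase that reverses eIF2 phosphorylation, 3.40 (2.86 to 4.05). *EIF4EBP1*, a translation repressor controlled by mTORC1, had a ratio of 2.25 (2.03 to 2.50). *GDF15*, a secreted stress hormone, was at 443, 699, 822, and 927 CPM, a ratio of 2.09 (1.96 to 2.23), and *HERPUD1*, of ER-associated degradation, had a ratio of 2.01 (1.74 to 2.34). The measured gene that was not past the limit was *SQSTM1*, an autophagy receptor, at 291 and 326 CPM, a ratio of 1.12 (1.02 to 1.22). Below the minimum of 500 UMIs, the secreted glycoprotein gene *STC2* and *SESN2*, an inhibitor of mTORC1, had ratios of 4.10 (3.24 to 5.25) and 3.72 (2.79 to 5.02). Without that minimum, 54 of the 57 ATF4-list genes had a UMI in both the ASNS-high and the ASNS-low cells. Of these, 48 were higher and 1 was lower, beside 30.7% higher and 29.6% lower of all 14258 such genes. The lower gene was *KLHL24*, which encodes an adaptor of a ubiquitin ligase, at 32.1 CPM in ASNS-low and 6.48 CPM in ASNS-high cells, a ratio of 0.20 (0.12 to 0.32).

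Of the machinery upstream of ATF4, 4 of 15 listed genes were measured, and 2 of them were higher, beside 39% of all genes. With median-of-ratios scaling, 2 were higher and 1, *EIF2S3*, was lower, beside 24.5% and 21.7% of all genes. *EIF2S1* and *EIF2S2*, the alpha and beta subunits of eIF2, had ratios of 1.85 (1.56 to 2.19) and 1.82 (1.69 to 1.97). *EIF2S3*, the gamma subunit, had a ratio of 0.82 (0.69 to 0.96), and *EIF2AK1*, the heme-regulated kinase, 1.09 (0.92 to 1.30).

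ER chaperones were split between *HSPA5* and the rest. *HSPA5*, the main chaperone of the ER lumen and an ATF4 and ATF6 target, was at 366, 689, 957, and 1227 CPM over the rank groups, a ratio of 3.35 (3.14 to 3.58). *XBP1*, a transcription factor of the unfolded protein response, had a ratio of 1.98 (1.65 to 2.39). The other 6 measured genes of the list had ratios from 0.96 for *CALR* to 1.5 for *MANF*, and the list median was 0.37 on the log2 scale, with 6 of 8 past the limit, or 3 of 8 with median-of-ratios scaling, beside 39% and 24.5% of all genes.

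The G2/M list had the largest median difference of the lists. All 10 measured of 37 listed G2/M genes were higher in the members, with a median log2 ratio of 3.06. Several of them, such as *CCNB1* with 43 UMIs in ASNS-low and 509 in ASNS-high cells, reached 500 UMIs only through the members, so this count is a description. Without a minimum, all 37 were higher, beside 30.7% of all genes. *MKI67*, a marker of cycling cells, was at 21.6, 71.7, 200, and 279 CPM over the rank groups, a ratio of 12.9 (10.1 to 16.7). *CCNB1*, the cyclin of mitotic entry, was at 13.3, 36.6, 109, and 157 CPM, a ratio of 11.8 (8.66 to 16.6), and *BIRC5*, of the chromosomal passenger complex, had a ratio of 12.5 (9.21 to 17.3). The S-phase genes *TYMS*, *MCM7*, and *NASP*, all 3 measured, had ratios of 3.25 (2.68 to 3.96), 2.53 (2.08 to 3.08), and 1.55 (1.36 to 1.77). Cells with at least 20 UMIs of G2/M genes per 10000 made up 4.01%, 12.6%, 32%, and 50.6% of the 4 rank groups (exact Clopper-Pearson interval in the members 45.0% to 56.2%, or 164 of 324 cells). Members were therefore about evenly divided between cells with and without a clear G2/M signal, and the ASNS-low cells held few of them.

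**Figure D3:**
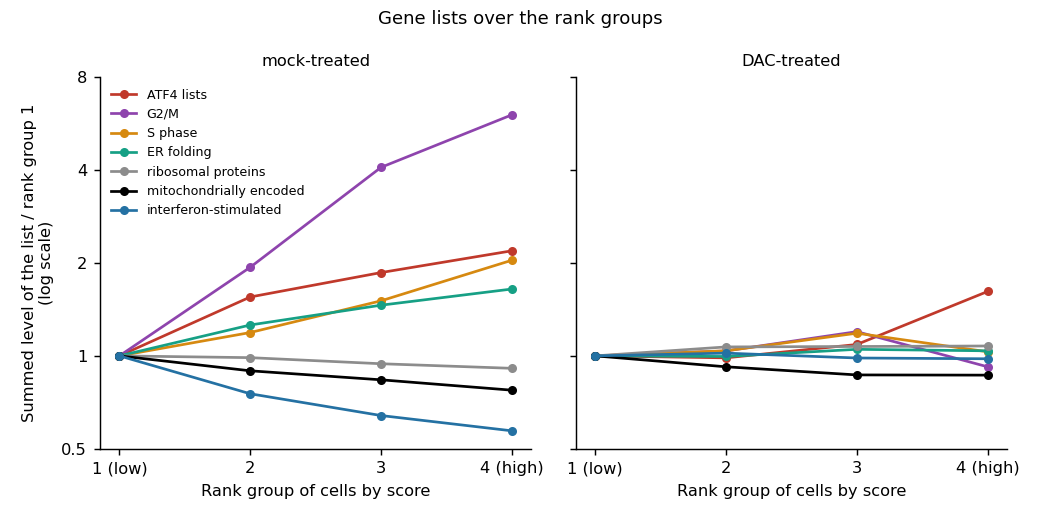
Summed level of 7 gene lists relative to the lowest rank group (y axis, log scale) over the 4 rank groups of cells by score (x axis) in mock-treated and DAC-treated cells. In mock-treated cells the G2/M list reaches 6.04 times and the ATF4 lists 2.19 times the lowest group. In DAC-treated cells the ATF4 lists reach 1.62 times, with the difference in the highest group, and the G2/M list ends at 0.92 times.

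Because cycling cells were unevenly spread over the rank groups, the cells were also ranked within 5 bins of their S and G2/M share. The G2/M median then dropped to 0.23 and the S-phase median was -0.04, as the binning uses these genes, although 4 of 9 measured G2/M genes were still past the limit, so the cells were matched in part. The ATF4 lists then had a median of 0.89, with 29 of 30 measured genes past the limit. Of 1497 genes, 434 (29%) were higher and 106 (7.08%) lower. In the 50% of cells with the lower cell cycle share, with 162 cells in each outer group, all 12 ATF4-list genes that reached 500 UMIs were higher, with a median of 1.12, beside 28.9% of all genes. All 12 were among the 30 genes measured in the first ranking, so they are not a separate set. The ATF4-list difference was therefore also present where the cell cycle share was matched in part.

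Ranking within 5 bins of the mitochondrial share gave a median of 0.80 for the ATF4 lists, with 28 of 31 measured genes past the limit beside 23.5% of all genes, and 1.63 for the G2/M list. As first ranked, the mitochondrially encoded genes had a median log2 ratio of -0.35, with 8 of 13 lower, beside 10.8% of all genes. With median-of-ratios scaling 12 of 13 were lower, beside 21.7% of all genes. Within the bins of the mitochondrial share their median was -0.03. The ATF4 and G2/M lists thus still differed within these bins, with smaller medians than as first ranked. Of the list genes and extreme genes that do not act in cell division, the ratios of some moved by over 1.5 times in these bins, with log2 values for *UPP1* (2.13), *DDIT3* (1.55), *GADD45A* (1.14), *MAP1LC3B* (1.16), *TXNRD1* (0.74), *S100A4* (-1.26), and *CPOX* (-1.23) beside 3.81, 2.37, 1.85, 1.76, 1.38, -2.00, and -1.94 as first ranked.

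**Figure D4:**
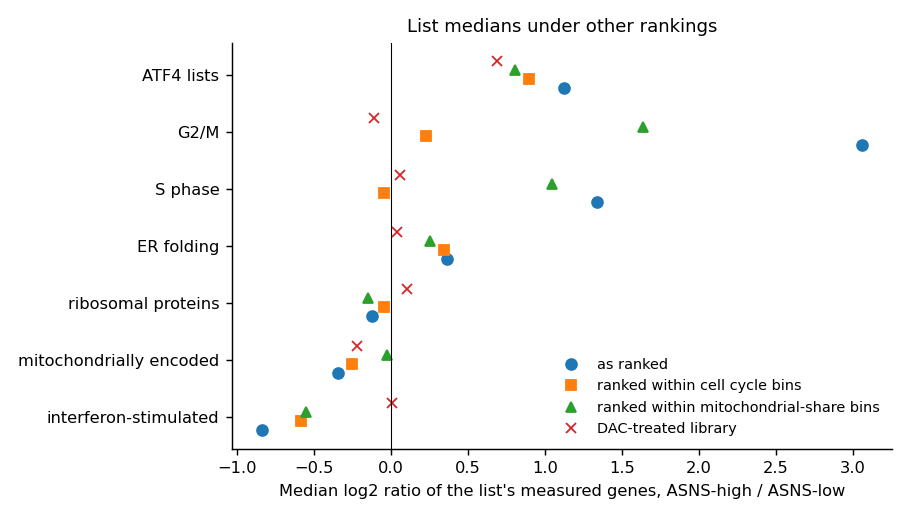
Median log2 ratio, ASNS-high over ASNS-low cells (x axis), of the measured genes of 7 lists (y axis) as first ranked, ranked within bins of the cell cycle share, ranked within bins of the mitochondrial share, and in the DAC-treated library. The ATF4 lists lie between 0.69 and 1.12 in all 4, whereas the G2/M list runs from 3.06 as first ranked to -0.11 in DAC-treated cells.

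Among genes with at least 500 UMIs, the 15 with the largest ratios were mostly genes of cell division, with 3 that act elsewhere. The largest ratio among these measured genes was that of *UPP1*, which encodes uridine phosphorylase and lies at chr7:48088628-48108736 on the plus strand. *UPP1* was at 21.0, 73.5, 157, and 294 CPM over the rank groups, a ratio of 13.99 (10.9 to 18.2), and its log2 ratio was 2.07 within cell cycle bins. *DDIT3* and *GOT1*, described above, were the other two. Within cell cycle bins their log2 ratios were 1.52 and 1.72. The remaining 12 genes were *MKI67*, *BIRC5*, *CCNB1*, *UBE2C*, *HMGB2*, *TPX2*, *CENPF*, *PTTG1*, *TK1*, *UBE2S*, *SMC4*, and *HIST1H4C*, with ratios from 4.88 to 12.9, and within cell cycle bins their log2 ratios were between -0.08 for *UBE2C* and 0.88 for *UBE2S*.

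The lowest 15 ratios, again among genes with at least 500 UMIs, were found for genes of other kinds. *SOX4*, a developmental transcription factor, was at 423, 204, 127, and 84.3 CPM from the lowest to the highest rank group, a ratio of 0.20 (0.17 to 0.23). *S100A4*, a calcium-binding protein linked to cell motility, was at 1032 CPM in ASNS-low and 258 CPM in ASNS-high cells, a ratio of 0.25 (0.23 to 0.27). *SAT1*, the enzyme that acetylates polyamines for their breakdown or export, was at 2927, 1518, 1154, and 825 CPM, a ratio of 0.28 (0.27 to 0.29). The levels of all 3 were lower at each step of the ranking. *CPOX*, of heme synthesis, had a ratio of 0.26 (0.21 to 0.32). *FOXC1* and *TCF7L2*, transcription factors, had ratios of 0.33 and 0.42, and *ID3*, an inhibitor of such factors, 0.43. *NEAT1*, the RNA scaffold of paraspeckles, was at 1078 and 436 CPM, a ratio of 0.40 (0.38 to 0.43). *IFITM2* and *IFITM3*, interferon-induced membrane proteins that block viral entry, had ratios of 0.37 and 0.42. *AHNAK2*, *CYB5B*, *FAT1*, *KITLG*, and *LTA4H* completed the 15, with ratios from 0.33 to 0.45. Within cell cycle bins, the log2 ratios of all 15 genes were between -1.90 for *SOX4* and -0.87 for *IFITM3* and *TCF7L2*, so these differences were also present within the bins.

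Genes of other stress programs were few among those measured and mostly differed in both directions, with the interferon-stimulated genes lower. Of 7 measured hypoxia and glycolysis genes, none was higher and 1 was lower, beside 39% and 10.8% of all genes. The lower gene was *GAPDH*, at a ratio of 0.79 (0.76 to 0.81). With median-of-ratios scaling 3 of the 7 were lower, beside 21.7% of all genes. *GAPDH* was no longer past the limit within bins of the cell cycle share (log2 ratio -0.29) or the mitochondrial share (-0.27), where none of the 7 was lower. Of 6 measured NRF2 targets, 3 were higher and 1 lower (2 and 1 with median-of-ratios scaling), close to the 39% and 10.8% of all genes. *TXNRD1*, thioredoxin reductase, had a ratio of 2.60 (2.31 to 2.94) and *FTH1*, the ferritin heavy chain, 1.44 (1.42 to 1.47), whereas *NQO1*, a quinone reductase, had 0.98 (0.91 to 1.06). Within bins of the mitochondrial share 1 of the 6 was higher, beside 23.5% of all genes, and *FTH1* was at a log2 ratio of 0.31, short of the limit. Within cell cycle bins 4 of the 6 were higher, beside 29% of all genes. None of the 6 was lower in either. Of 6 measured heat shock genes, 2 were higher and 2 lower, beside 39% and 10.8% of all genes. With median-of-ratios scaling none was higher and 2 were lower, beside 24.5% and 21.7% of all genes. Of 2 measured p53 targets, *FDXR*, ferredoxin reductase, had a ratio of 0.59 (0.50 to 0.70), and *CDKN1A*, the cell cycle inhibitor p21, had 1.32 (1.13 to 1.53) but a log2 ratio of -0.29 when *DDIT4* was left out of the ranking. Summed over all 20 listed p53 targets, the ratio was 0.75 (0.71 to 0.80), and at a minimum of 200 UMIs 2 of 8 were higher and 5 lower, beside 37.5% and 12.5% of all genes. Of 2 measured autophagy and lysosome genes, *MAP1LC3B*, which encodes a protein of the autophagosome membrane, had a ratio of 3.38 (3.06 to 3.74), and *CTSB*, a lysosomal protease, 0.63 (0.54 to 0.75). Of 3 measured interferon-stimulated genes, *IFITM3* and *ISG15*, a ubiquitin-like protein, were lower, with *ISG15* at 287 and 160 CPM and a ratio of 0.56 (0.50 to 0.62). Summed over the 16 listed genes, the ratio was 0.57 (0.54 to 0.60), and without a minimum 8 of 11 were lower and none was higher, beside 29.6% lower of all genes. No list besides the ATF4 lists and those of the cell cycle thus had all or nearly all of its measured genes higher in the members.

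Genes of the translation machinery were also divided. Of 10 measured ribosome biogenesis genes, 7 were higher (4 with median-of-ratios scaling), beside 39% and 24.5% of all genes, such as *NOP56* and *DKC1*, both of the particles that modify ribosomal RNA, with ratios of 1.79 (1.62 to 1.99) and 1.77 (1.54 to 2.02). Of 80 measured cytosolic ribosomal protein genes, 1 was higher and 3 were lower, beside 39% and 10.8% of all genes, with a median log2 ratio of -0.12. With median-of-ratios scaling, none of them was higher and 40 were lower, beside 21.7% lower of all genes, with a median of -0.32, so their count depends on the scaling. Of 9 measured genes of the translation factor list, 1 was higher and 4 were lower, beside 39% and 10.8% of all genes. With median-of-ratios scaling 0 and 6 were, beside 24.5% and 21.7%. Within bins of the cell cycle share and of the mitochondrial share 2 and 1 were lower, beside 7.08% and 6.93% of all genes. The 4 lower genes as first ranked included *EEF2*, the translocation factor, at 1670 and 1326 CPM, a ratio of 0.79 (0.76 to 0.83). Another was *EIF4B*, a helper of the initiation helicase, at a ratio of 0.70 (0.65 to 0.76). Within cell cycle bins *EEF2* was at a log2 ratio of -0.23, short of the limit, and *EIF4B* at -0.40. In the 50% of cells with the lower cell cycle share, both were short of it (-0.20 and -0.24).

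The same rule was applied to the 1120 eligible DAC-treated cells, in which the ranking genes were much lower. *ASNS* was at 289 CPM over the eligible mock-treated and 32.9 CPM over the eligible DAC-treated cells, *DDIT4* at 233 and 16.5 CPM, *TRIB3* at 129 and 16.8 CPM, and *CHAC1* at 37.4 and 7.46 CPM. These are the values of 1 library per condition. Of the 280 cells of the DAC-treated bottom 25%, 185 had no UMI of the 4 genes, and the median score of the DAC-treated top 25% was 1.43 per 10000. *ASNS* in that group, at 96.4 CPM, was near its 89.2 CPM in mock-treated ASNS-low cells. The top 25% of DAC-treated cells and of mock-treated cells thus differ in level.

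Of 1541 genes measured in DAC-treated cells, 54 (3.5%) were higher in the top 25% and 24 (1.56%) were lower, by the same limits. The ATF4-list genes were higher in this library too, with 14 of 17 measured genes past the limit, none lower, and a median log2 ratio of 0.69 beside 0.03 for all genes. *ATF4* had a ratio of 2.33 (2.03 to 2.68), against 1.72 in mock-treated cells. *GADD45A* had a ratio of 1.98 (1.65 to 2.39) and *SLC3A2* 1.76 (1.60 to 1.95), against 3.61 and 3.04. Under the minimum of 500 UMIs in this library, *DDIT3* was at 11.8 CPM in the bottom and 108 CPM in the top 25%, a ratio of 9.12 (6.36 to 13.5). The difference of the ATF4-list genes along the ranking was thus seen in both libraries, each with its own cells.

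The G2/M genes did not share this pattern. In DAC-treated cells, none of 14 measured G2/M genes was higher and 2 were lower, with a median log2 ratio of -0.11, and cells with at least 20 G2/M UMIs per 10000 made up 62.1%, 66.8%, 76.4%, and 60.4% of the rank groups. *MKI67* had a ratio of 0.96 (0.88 to 1.06) there. *UPP1* was at 108 and 132 CPM, a ratio of 1.22 (1.05 to 1.43), and *SOX4* at 98.9 and 114 CPM, a ratio of 1.15 (0.97 to 1.35). The difference between the libraries in these genes was not tested, and with 1 library each, treatment and library cannot be told apart.

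Of 1244 genes measured in both libraries, 502 were higher in the mock-treated and 42 in the DAC-treated top 25%, and 31 in both. The 31 were 6.18% of the first list, beside 42 of all 1244 genes, and 73.8% of the second, beside 502 of all 1244. Of these 31, 13 belonged to the ATF4 lists, which held 16 of the 1244 genes. Among lower genes, 110 and 8 of the 1244 were counted, with 4 in both.

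**Figure D5:**
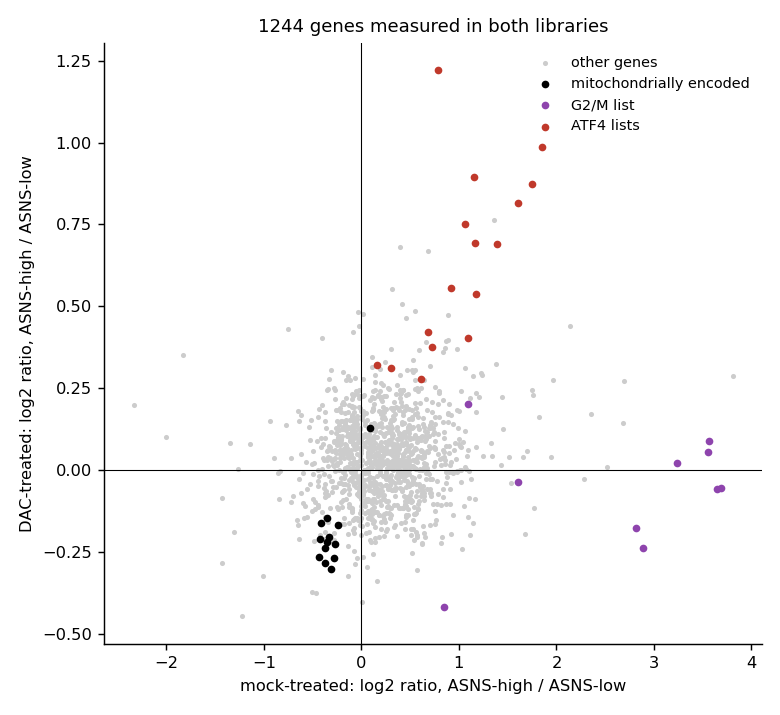
Log2 ratio of the top over the bottom 25% in mock-treated cells (x axis) and DAC-treated cells (y axis) for the 1244 genes measured in both libraries, with the ATF4 lists in red, the G2/M list in purple, mitochondrially encoded genes in black, and other genes in gray. Genes of the ATF4 lists are above 0 on both axes, whereas G2/M genes are far to the right and scatter around 0 on the y axis.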

How the data were processed

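Reads were aligned to hg38 with Cell Ranger by the authors, and the deposited values were raw UMI counts of each gene in each cell. The annotation release and any filter on cells are not given in the sources used here. Cells were kept, ranked, and divided into 4 rank groups as described above, thinned to 10000 UMIs by sampling without replacement, and summed by group. Levels are UMIs per 1000000 (CPM), and ratios are of the top to the bottom 25%. Genes with 500 or more UMIs over both groups, the 4 ranking genes left out, were counted as higher from 25% above and as lower from 20% below. Intervals are exact (Poisson, Clopper-Pearson, or conditional binomial for ratios), at the 95% level, for counting error only. The members and the gene lists were chosen with earlier results of these data known. Genes were named if they were ranking genes, members of the lists, or among the 15 highest or 15 lowest ratios, and those under other observations were chosen after their values were seen. No doublet caller was run, because both cells of a doublet would be of the same line, and an alternative dropped the 5% of cells of highest UMI number. Other thinning depths, scalings, minimums, folds, filters, and rankings were tried. Python 3.11.15 with numpy 2.4.6, scipy 1.17.1, pandas 2.3.3, and matplotlib 3.10.9 was used, and the computations were tested on simulated data. Positions came from GENCODE release 44 on hg38, the build the authors used, and promoters from RefSeq (GRCh38.p14).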

Additional observations from a re-analysis of the deposited data

Results flagged for a closer look

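In 4 of the named genes, 3 from the lists and *SAT1* from the 15 lowest ratios, the difference along the ranking had opposite directions in the libraries, past the limit of 25% higher or 20% lower in each. The log2 ratio of *EIF4A2*, an RNA helicase of translation initiation, was -0.41 in mock-treated and 0.40 in DAC-treated cells. For *SAT1*, of polyamine breakdown, it was -1.83 and 0.35. For *TMPO*, a protein of the nuclear lamina and a member of the G2/M list, it was 0.84 and -0.42. For *FDXR*, ferredoxin reductase, it was -0.76 and 0.43. The differences between the libraries were not tested. Within cell cycle bins of mock-treated cells, *TMPO* was at -0.14, with the sign of its DAC-treated value. The G2/M list that includes *TMPO* helps define these bins, so its value there is a description only. *EIF4A2* was at -0.21 in these bins, short of the limit, as it was within bins of the mitochondrial share (-0.22). *SAT1* and *FDXR* were at -1.45 and -0.81 within cell cycle bins. In the 50% of mock-treated cells with the lower cell cycle share, *EIF4A2* was at -0.03, short of the limit. *TMPO* was at -0.54 there, with 80 UMIs in the bottom and 55 in the top 25%, under the minimum for measured genes. The share by which these cells were chosen also includes *TMPO*, so its value there is a description only.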

How the results depend on the processing

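No paired analysis was possible because each condition had 1 library and no test was made. The ATF4-list median was above 0 under each of the 24 alternatives, of which 3 (bins of mitochondrial share, equal weights of the 4 genes, and the 50% of cells with the lower cell cycle share) were chosen after seeing the data. Genes counted as higher and lower, beside 586 and 162, were 1792 and 568 without thinning, 256 and 77 at 5000 UMIs, 368 and 326 with median-of-ratios scaling, 1770 and 576 as mean of per-cell CPM, 1381 and 459 at a minimum of 200 UMIs, 4377 and 4216 without a minimum, 298 and 59 at a fold of 1.5, 1014 and 269 when ranked on a portion of the UMIs and measured in the rest, 221 and 83 for the top and bottom 10%, 54 and 24 in the DAC-treated library, 352 and 104 within bins of mitochondrial share, and 193 and 62 in the 50% with the lower cell cycle share. Within bins of the cell cycle share 106 were lower. Many of these alternatives change the number of genes measured. The ATF4-list median, beside 1.12, was 0.93 with median-of-ratios scaling, 1.18 as mean of per-cell CPM, 1.17 at a minimum of 200 UMIs and without a minimum, 0.77 in cells with 20% or less mitochondrial UMIs, 1.03 without mitochondrial UMIs in the totals, 0.99 when ranked after thinning, 1.05 within bins of total UMIs, 0.89 within bins of cell cycle share, 1.07 without *ASNS* and 1.09 without *TRIB3* or 1.08 without *CHAC1* in the ranking, 1.07 on a portion of the UMIs, 1.70 for the top and bottom 10%, 0.59 against all other eligible cells, 1.19 without the 5% of cells of highest UMI number, 0.69 in the DAC-treated library, and 0.80 within bins of mitochondrial share. The cause of each shift was not tested. For the single genes counted in this section, a value was taken only where the gene had 500 UMIs under the alternative as well. That limit was chosen after seeing the data, and values under alternatives printed in other sections can rest on fewer UMIs. The genes that reversed within cell cycle bins are in the S and G2/M lists that define these bins. Log2 ratios reversed within cell cycle bins for *UBE2C* (-0.084), *TYMS* (-0.082), *NASP* (-0.0063), *CKS2* (-0.10), and *TMPO* (-0.14), and without *DDIT4* for *CDKN1A* (-0.29). In the DAC-treated library, they reversed for *MKI67* (-0.056), *BIRC5* (-0.058), *TPX2* (-0.24), *CENPF* (-0.18), *HIST1H4C* (-0.026), *CKS2* (-0.037), *TMPO* (-0.42), *PDIA4* (-0.17), *MANF* (-0.12), *AREG* (-0.20), *EREG* (-0.14), *SOX4* (0.20), *S100A4* (0.10), *SAT1* (0.35), *FAT1* (0.082), *IFITM3* (0.0026), *FDXR* (0.43), *GAPDH* (0.25), *EEF2* (0.28), *EIF4B* (0.017), and *EIF4A2* (0.40). Of the other values, 1586 stayed within their counting interval and 612 moved past it without reversing a counted direction.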

Other observations

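Several genes outside the lists were named after their values were seen, in a comparison where 39% of all measured genes were higher. *AREG* and *EREG*, ligands of the EGF receptor, were at 1148 and 3679 CPM and at 348 and 742 CPM in ASNS-low and ASNS-high cells, ratios of 3.21 (3.09 to 3.33) and 2.13 (1.99 to 2.29). In DAC-treated cells their ratios were 0.87 (0.82 to 0.93) and 0.91 (0.77 to 1.07). *FOSL1* and *DUSP5*, targets of ERK signaling, had ratios of 4.13 (3.44 to 5.00) and 3.10 (2.63 to 3.66), and *TNFRSF12A*, a receptor of the TNF family, had 3.90 (3.55 to 4.29). Within cell cycle bins, the log2 ratios were 1.04 for *FOSL1*, beside 2.05 as first ranked, and 1.251 for *TNFRSF12A*, beside 1.96. Within bins of the mitochondrial share they were 1.19 for *FOSL1*, 1.26 for *TNFRSF12A*, and 0.96 for *DUSP5*, the last beside 1.63. Of the 8 measured genes of the immediate early list, 3 were higher and 1 was lower in the members, shares near the 39% and 10.8% of all measured genes, and with median-of-ratios scaling 1 was higher and 2 were lower. The lower gene was *FOS*, at 114 CPM in ASNS-low and 54.9 CPM in ASNS-high cells, a ratio of 0.48 (0.40 to 0.58).

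Also named after their values were seen, *HSPA9*, a chaperone of the mitochondrial matrix, had a ratio of 2.35 (2.14 to 2.59) and *LONP1*, a protease of the matrix, 2.38 (1.97 to 2.90). *SEPHS2*, of selenocysteine synthesis, had a ratio of 2.89 (2.39 to 3.51), and *SLC38A1*, a glutamine transporter outside the ATF4 lists, 2.07 (1.77 to 2.43). The difference of these genes beyond that of all measured genes was not tested.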
